A study of Mus musculus with 14 samples.

Results

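The 76 genes described here carry the names Mrpl or Mrps, given to proteins of the mitochondrial ribosome, among 27179 genes counted in activated mouse CD4 T cells. All but Mrps36, a subunit of the oxoglutarate dehydrogenase complex, encode proteins of that ribosome. They were chosen by name alone: every gene whose Entrez identifier maps to a symbol of Mrpl or Mrps plus a number, with an optional letter, was taken, pseudogenes were to be dropped (there were 0), and a gene had to reach 1 CPM (a count scaled to the size of its library) in at least 1 library. Of 78 names that matched, Mrpl36 (highest value 0.0621 CPM, 1 count over all libraries) and Mrpl23 (0.948 CPM, 36 counts) fell under that level. The lowest genes kept were Mrps36 (1.37 CPM, 147 counts) and Mrpl27 (16.7 CPM, 2069 counts). Of the members, 47 are named Mrpl and 29 Mrps, and all 76 passed the filter on low counts and were tested.

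The libraries come from 3 groups of CD4 T cells of C57BL/6 mice, which were naive at the start and were kept for 3.5 days on plate-bound antibodies to CD3 and CD28 before a flow cytometry sort. Th1 (5 libraries) was cultured toward T helper 1 cells. TfhA (4 libraries, numbered 1, 2, 4 and 5) was cultured toward T follicular helper cells with an antibody that neutralises TGF-β, and Tfh5 (5 libraries) was cultured toward T follicular helper cells with TGF-β at 5 ng/ml. No source used here gives the age or sex of the mice, the cytokines of each medium or the animal or culture behind each library. The p-values therefore cover only the variation among these libraries, which may be technical. The cells were differentiated in vitro, which limits them as a model of follicular helper cells in a lymph node.

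The mitochondrial ribosome is assembled in the mitochondrial matrix and translates the mRNAs of the mitochondrial genome, all of which encode subunits of the respiratory chain and ATP synthase. Its rRNAs are transcribed from mitochondrial DNA, whereas its proteins are encoded by nuclear genes, translated in the cytosol and imported. In T cells, activation is accompanied by growth of the mitochondrial network, and mitochondrial translation has been linked to proliferation and cytokine production.

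Library totals ran from 13390058 to 16108059 counts in Th1, from 8805921 to 13027721 in TfhA and from 9766313 to 13316633 in Tfh5. The members held 0.443 to 0.483% of counts in Th1, 0.511 to 0.533% in TfhA, but 0.386 to 0.434% in Tfh5. Genes of the mitochondrial genome held 4.46 to 6.56% of counts in Th1, 4.07 to 7.01% in TfhA, but 7.29 to 8.54% in Tfh5, and the counts of calls without those genes are given further down. The 6 CD4 T cell markers (Cd4, Cd3e, Cd3d, Cd3g, Cd5, Cd28) summed to 3693 CPM or more in every library. The 4 B cell markers summed to 0.378 to 1.68 CPM in Th1, 3.93 to 6.66 in TfhA, but 0.408 to 1.70 in Tfh5, with Cd79b and Ms4a1 higher in TfhA than in both other groups. The 5 myeloid markers summed to at most 3.03 CPM, highest in TfhA, with Lyz2 at 0 in every TfhA and Tfh5 library and Adgre1 at 0 in all 14. Itgam, the 1 myeloid marker that could be tested, ranged over 0 to 0.347 CPM in Th1, 1.36 to 2.81 in TfhA, and from 0.286 to 1.34 in Tfh5, and was higher in TfhA than in Th1 at a log2 fold change of 3.62 ± 0.57 (SE, adjusted p = 1.38e-05) and lower in Tfh5 than in TfhA at -1.18 ± 0.47 (SE, adjusted p = 0.0362). The 2 NK markers summed to 0.285 to 1.79 CPM in Tfh5, to at most 0.0624 in Th1 and to 0 in every TfhA library, with Ncr1 at 0 throughout. The part of these traces, and of the differences in the CD4 T cell markers, in the results was not tested. Granulocyte markers summed to at most 0.212 CPM and CD8 markers to 8.26 to 34.0 CPM, and the red cell markers Hba-a1 and Hbb-bs were at 0 throughout. In bulk RNA, fewer cells of a type and less RNA per cell cannot be told apart.

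The DNA just upstream of a few start sites is shown first, ahead of the levels. Whether it has a part in the levels described below was not tested. The stretches below are the 120 bases before the annotated start (RefSeq, GRCm38.p6), 5′ to 3′ on the gene's strand, for the 4 members with the lowest and the 2 with the highest log2 fold change in Tfh5 against TfhA among the 67 members that the promoter table matched. Capitals mark the letters of the searched motifs. For Mrpl9 the start used lies inside the annotated gene, which begins at chr3:94443154. Its stretch and its motif positions refer to that inner start.
Mrpl16, chr19:11770295-11770414, plus strand: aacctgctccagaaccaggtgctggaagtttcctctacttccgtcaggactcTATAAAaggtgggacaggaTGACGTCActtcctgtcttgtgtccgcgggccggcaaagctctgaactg
Mrpl42, chr10:95501950-95502069, minus strand: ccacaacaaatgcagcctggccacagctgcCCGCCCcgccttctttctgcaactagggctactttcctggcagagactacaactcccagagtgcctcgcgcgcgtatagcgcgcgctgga
Mrpl28, chr17:26123383-26123502, plus strand: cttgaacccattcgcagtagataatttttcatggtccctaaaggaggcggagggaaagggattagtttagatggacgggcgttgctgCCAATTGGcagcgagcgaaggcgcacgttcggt
Mrpl12, chr11:120484517-120484636, plus strand: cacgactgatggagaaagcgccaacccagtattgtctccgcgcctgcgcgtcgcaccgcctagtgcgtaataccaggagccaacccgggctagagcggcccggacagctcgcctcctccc
Mrpl9, chr3:94443216-94443335, plus strand: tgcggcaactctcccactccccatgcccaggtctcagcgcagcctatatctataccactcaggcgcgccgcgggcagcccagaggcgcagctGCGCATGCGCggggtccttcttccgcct
Mrps5, chr2:127587306-127587425, plus strand: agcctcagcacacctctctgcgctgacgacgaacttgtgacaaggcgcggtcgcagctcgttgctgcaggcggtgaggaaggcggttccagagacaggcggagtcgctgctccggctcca
The capitals are a TATA box and a cAMP response element in Mrpl16 (first letters at -68 and -49 from the start), a GC box in Mrpl42 (-90), 2 overlapping CCAAT boxes on opposite strands in Mrpl28 (-33 and -30) and 2 overlapping matches to the core of the nuclear respiratory factor 1 site, 1 on each strand, in Mrpl9 (-28 and -27). None of the 8 searched motifs lay in the printed bases of Mrpl12 or of Mrps5, which says only that these letters are not in this window.

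Over the whole promoter table, which spans 250 bases before to 50 bases after each start, 73 promoters belonged to the 67 matched members. Both strands were searched for 8 motifs. The ETS motif CCGGAAG, the core bound by the GABP family, was in 35.6% of the members' promoters, against 17.7% of 12610 promoters of tested genes and 8.9% of all 32851 promoters. The nuclear respiratory factor 1 core GCGCATGCG was in 9.6% against 3.6% and 1.8%, and the YY1 motif AAGATGGCG was in 9.6% against 3.0% and 1.4%. The other motifs were spread more evenly: the GC box GGGCGG was in 52.1% against 61.7% of the tested, CCAAT in 39.7% against 38.0%, the E-box CACGTG in 8.2% against 10%, TATAAA in 6.8% against 7.2% and the cAMP response element TGACGTCA in 2.7% against 3.0%. Differences between members with and without a motif were not tested. In Tfh5 against TfhA the median log2 fold change was -0.32 in the 26 members with the ETS motif and -0.40 in the 41 without it, and -0.26 in the 7 members with the nuclear respiratory factor 1 core and -0.38 in the 60 without it. It was -0.43 in the 33 members with a GC box and -0.29 in the 34 without one, and -0.71 in the 2 members with the cAMP response element and -0.34 in the 65 without it. For YY1 it was -0.34 in 7 members and -0.38 in 60, and for CCAAT -0.38 in 26 and -0.34 in 41. For the E-box it was -0.36 in 4 members and -0.37 in 63, and for TATAAA -0.34 in 5 and -0.38 in 62. These matches are letters in a window, not measured binding.

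Some members start beside a neighbour on the other strand. By the GENCODE M21 gene models, another protein-coding gene starts on the opposite strand within 1000 bases upstream in 18 of the 76 (23.7%). The share was 10.7% of 11692 tested genes with a gene model. Mrpl46 and Mrps11 were not in that count. By their RefSeq coordinates they also start side by side: Mrpl46 (minus strand) ends at chr7:78783089 and Mrps11 (plus strand) begins at chr7:78783131. Other such pairs may likewise be missed among the tested genes. Mrps5 starts 128 bases from Zfp661, Mrps12 starts 172 bases from Sars2, which encodes the mitochondrial seryl-tRNA synthetase, and Mrps18b starts 45 bases from Ppp1r10. The partners took both directions. In Tfh5 against TfhA the log2 fold change was -1.19 for Ncapd2 beside -0.68 for Mrpl51 and -1.33 for Ska3 beside -0.64 for Mrpl57, but 1.16 for Klc4 beside -0.40 for Mrpl2. Zfp661 stood at 0.16 (adjusted p = 0.587), beside 1.75 for Mrps5.

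Taken as 1 sum, the members' transcripts were most abundant in TfhA and least abundant in Tfh5. The 76 members summed to 4750, 4686, 4693, 4519 and 4922 CPM in the Th1 libraries, to 5047, 5204, 4984 and 5245 in TfhA and to 4343, 3847, 4006, 3939 and 3984 in Tfh5. The 3 groups did not overlap, and Tfh5 1 was the highest of its group. The means were 4714 ± 145 CPM (SD, n = 5) in Th1, 5120 ± 124 (n = 4) in TfhA and 4024 ± 189 (n = 5) in Tfh5. For the 49 proteins of the large subunit, which holds the peptidyl transferase centre, the sums ran from 3168 to 3442 CPM in Th1, from 3469 to 3662 in TfhA and from 2567 to 2928 in Tfh5, with no overlap. For the 26 proteins of the small subunit, which reads the mRNA, they ran from 1350 to 1479 CPM in Th1, from 1515 to 1582 in TfhA and from 1280 to 1415 in Tfh5, so that Th1 and Tfh5 overlapped. The order of these sums holds for CPM without a correction for gene length or base composition, which is taken up below.

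**Figure D1:**
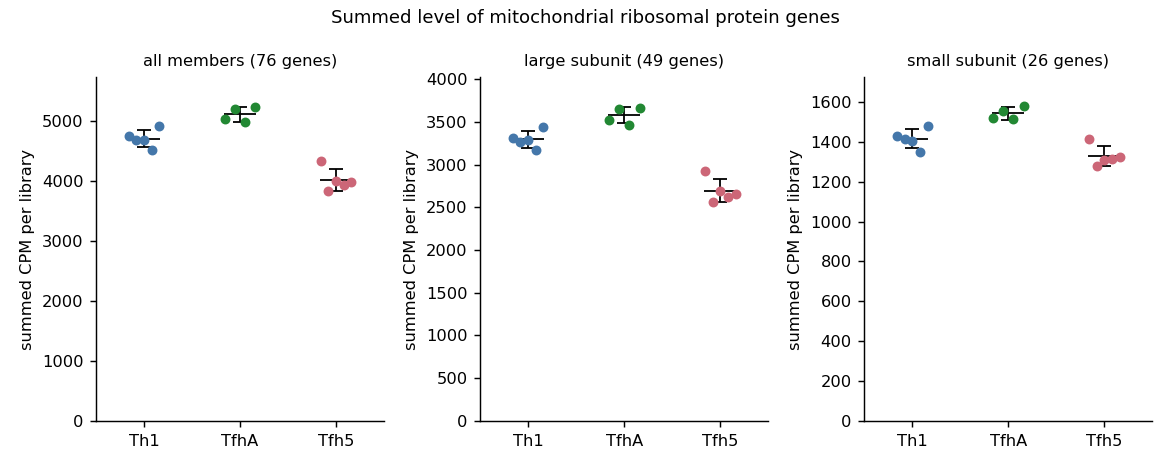
Summed CPM of all members, of the large subunit and of the small subunit. Each point is 1 library (5 Th1, 4 TfhA, 5 Tfh5) and the black bars give mean and SD. The TfhA libraries lie above all others in each panel, and the Tfh5 libraries (3847 to 4343 CPM for all members) lie below the others except in the small subunit, where they overlap Th1.

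By mean CPM, 43 of the 76 members were highest in TfhA, where 29.9% of all tested genes were highest, and 57 were lowest in Tfh5, against 39.8% of tested genes. The order TfhA above Th1 above Tfh5 was held by 35 members (46.1%, against 18.7% of tested genes), and Th1 above TfhA above Tfh5 by 22 (28.9%, against 21.1%). In Tfh5, 8 members were highest, against 38.0% of tested genes.

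In the comparison of Tfh5 with TfhA, follicular helper cultures with added and with neutralised TGF-β, 47 of the 76 members were lower in Tfh5 and 4 were higher, with log2 fold changes of -0.26 to -1.18 among the former and 0.35 to 1.75 among the latter. The lower calls took in 33 of 49 large subunit genes, among them Mrpl16, Mrpl42 and Mrpl28, and 14 of 26 small subunit genes, among them Mrps28 and Mrps18b. The 4 higher genes were Mrps5, Mrps6, Mrpl9 and Mrpl58. The member median was -0.40 on the log2 scale, against -0.014 over all 13075 tested genes. A gene was called at an adjusted p under 0.05 in edgeR's quasi-likelihood test over all tested genes. By the same rule 30.1% of all tested genes were lower and 27.4% were higher, against 61.8% and 5.26% of the members. Counted by libraries that did not overlap between the groups, 33 members were lower (43.4%, background 23.4%) and 3 were higher (3.95%, background 20.8%). Only 1 of the lower calls (Mrps28) and 1 of the higher calls (Mrps5) reached 2-fold. Leaving out Tfh5, TfhA or Th1 libraries one at a time gave 39 to 49 lower and 4 higher members.

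Genes with short transcripts were lower in Tfh5 in general, and the members are short. The median summed exon length was 1404.5 bases over the members and 3295 over tested genes, and 49 of the 76 fell in the shortest of 5 equal classes of length (64 to 1850 bases). In that class all genes had a median of -0.19 and the members -0.32 in Tfh5 against TfhA. In length classes 3 and 4, with 8 members each, all genes had medians of 0.0 and 0.042, and the members -0.56 and -0.47. With offsets for base composition (GC content) and length fitted in each library, 31 members (40.8%) were lower and 16 (21.1%) were higher. The background was 28.7% lower and 32.3% higher. The member median was then -0.22 against 0.043 over all tested genes. The split of 47 lower to 4 higher thus became 31 to 16 under these offsets. The part of transcript length in these calls beyond this correction was not tested.

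**Figure D2:**
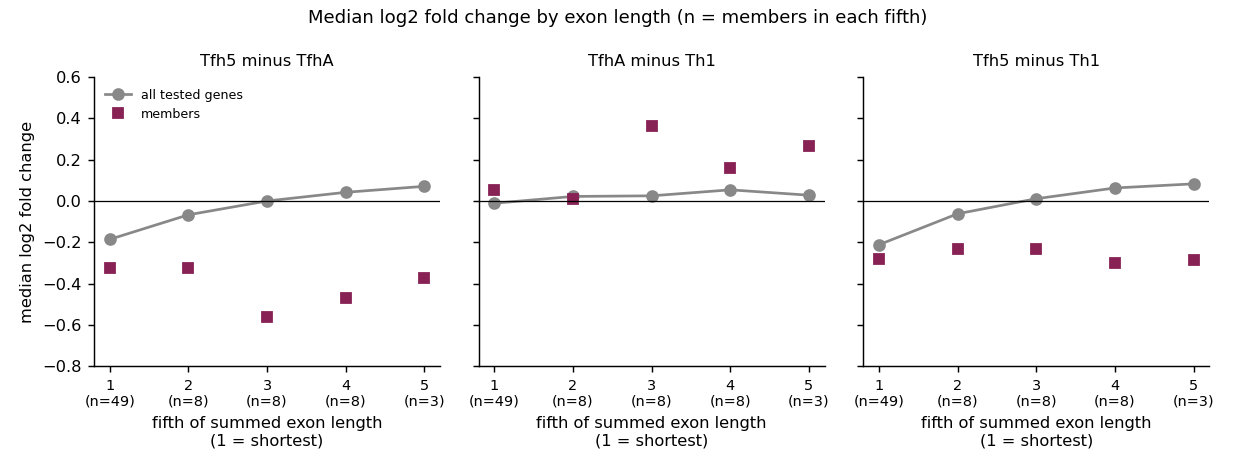
Median log2 fold change in 5 equal classes of summed exon length for all tested genes (grey line) and for the members (squares, their number under each class), in the 3 comparisons. In Tfh5 minus TfhA the grey line climbs from -0.19 to 0.071 and the members lie below it in every class; in Tfh5 minus Th1 the 49 short members lie near it (-0.28 against -0.21).

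Mrps5, the homologue of bacterial S5 near the mRNA entrance of the small subunit, had the largest rise of the members. It stood at 10.8, 15.0, 18.4, 14.5 and 14.01 CPM in the Th1 libraries, at 19.6, 16.9, 20.03 and 30.1 in the TfhA libraries and at 85.1, 70.7, 67.1, 70.6 and 69.4 in the Tfh5 libraries. Every Tfh5 library lay above every other library, and TfhA and Th1 overlapped. Mrps5 (chr2:127587426-127603986) rose 3.36-fold against TfhA, with a log2 fold change of 1.75 ± 0.15 (SE, adjusted p = 5.57e-10), and 5.00-fold against Th1, with 2.32 ± 0.14 (SE, adjusted p = 5.11e-13). TfhA itself was above Th1 by 0.57 ± 0.15 (SE, adjusted p = 0.00397). The value against TfhA was 1.76 (adjusted p = 1.36e-10) with the GC and length offsets.

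The other 3 higher members changed less. Mrps6, the homologue of bacterial S6 on the platform of the small subunit, stood at 111, 122, 127, 113 and 135 CPM in the Th1 libraries, at 128, 136, 116 and 124 in the TfhA libraries and at 175, 178, 159, 138 and 152 in the Tfh5 libraries. All 5 Tfh5 libraries lay above the Th1 and TfhA libraries, and the log2 fold change was 0.35 ± 0.094 (SE, adjusted p = 0.00276) against TfhA and 0.40 ± 0.088 (SE, adjusted p = 0.000327) against Th1. In the GENCODE M21 gene models its exons share 159 bases with Slc5a3 and 305 with Gm49711 on the same strand. If the counting used these genes too, which is not known, reads there cannot be assigned to 1 gene. Mrpl58, a peptidyl-tRNA hydrolase that is built into the large subunit and can release stalled peptides, stood at 56.7, 45.6, 54.6, 52.3 and 53.4 CPM in the Th1 libraries, at 55.0, 54.3, 50.02 and 53.0 in the TfhA libraries and at 86.5, 66.3, 78.3, 58.0 and 62.5 in the Tfh5 libraries. Here too the Tfh5 libraries lay above the others, with 0.41 ± 0.11 (SE, adjusted p = 0.00327) against TfhA and 0.42 ± 0.10 (SE, adjusted p = 0.00108) against Th1. Mrpl9, a large subunit protein with a bacterial counterpart, stood at 38.6, 40.2, 42.9, 38.0 and 40.0 CPM in the Th1 libraries, at 30.9, 41.4, 34.9 and 29.5 in the TfhA libraries and at 55.8, 39.7, 49.9, 44.2 and 44.0 in the Tfh5 libraries. TfhA and Tfh5 overlapped, and the log2 fold change was 0.45 ± 0.12 (SE, adjusted p = 0.00219). Its exons share 157 bases with Oaz3 on the opposite strand, and no source used here gives the strand setting of the counting.

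Among the lower members, Mrps28, a small subunit protein related to bacterial S1, had the lowest fold change. Mrps28 (chr3:8802146-8923857) stood at 20.1, 20.04, 19.5, 20.4 and 21.2 CPM in the Th1 libraries, at 22.9, 30.7, 21.9 and 29.6 in the TfhA libraries and at 11.8, 13.9, 11.6, 9.87 and 10.8 in the Tfh5 libraries. Every Tfh5 library lay below every library of the other groups. It fell by 55.9% against TfhA, with a log2 fold change of -1.18 ± 0.14 (SE, adjusted p = 5.79e-08) and of -0.84 (adjusted p = 5.6e-06) with the GC and length offsets.

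Mrpl16, a large subunit protein with a bacterial counterpart near the peptidyl transferase centre, stood at 56.5, 53.7, 51.3, 53.7 and 58.6 CPM in the Th1 libraries, at 64.2, 70.5, 64.2 and 71.3 in the TfhA libraries and at 36.5, 37.1, 35.0, 25.5 and 36.5 in the Tfh5 libraries. Tfh5 lay below both other groups in all libraries, also leaving aside the low Tfh5 4. The log2 fold change against TfhA was -0.98 ± 0.11 (SE, adjusted p = 2.2e-08). Mrpl42, which is found only in mitochondrial ribosomes, stood at 72.6, 100.5, 112, 101 and 107 CPM in the Th1 libraries, at 154, 126, 161 and 182 in the TfhA libraries and at 93.2, 66.0, 79.5, 85.5 and 82.6 in the Tfh5 libraries. The TfhA libraries were the highest and did not overlap with Tfh5, at -0.93 ± 0.12 (SE, adjusted p = 5.02e-07). Mrpl28, the counterpart of bacterial L28, stood at 88.3, 70.5, 68.9, 61.0 and 72.9 CPM in the Th1 libraries, at 70.0, 80.0, 64.0 and 57.4 in the TfhA libraries and at 39.5, 38.9, 35.0, 33.2 and 34.5 in the Tfh5 libraries. Th1 and TfhA overlapped and Tfh5 lay below both, with -0.91 ± 0.11 (SE, adjusted p = 2.51e-07) against TfhA and -0.998 ± 0.11 (SE, adjusted p = 1.6e-08) against Th1. The values against TfhA with the GC and length offsets were -0.68 (adjusted p = 1.05e-06), -0.51 (adjusted p = 0.000163) and -0.69 (adjusted p = 8.58e-08) in this order of genes.

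**Figure D3:**
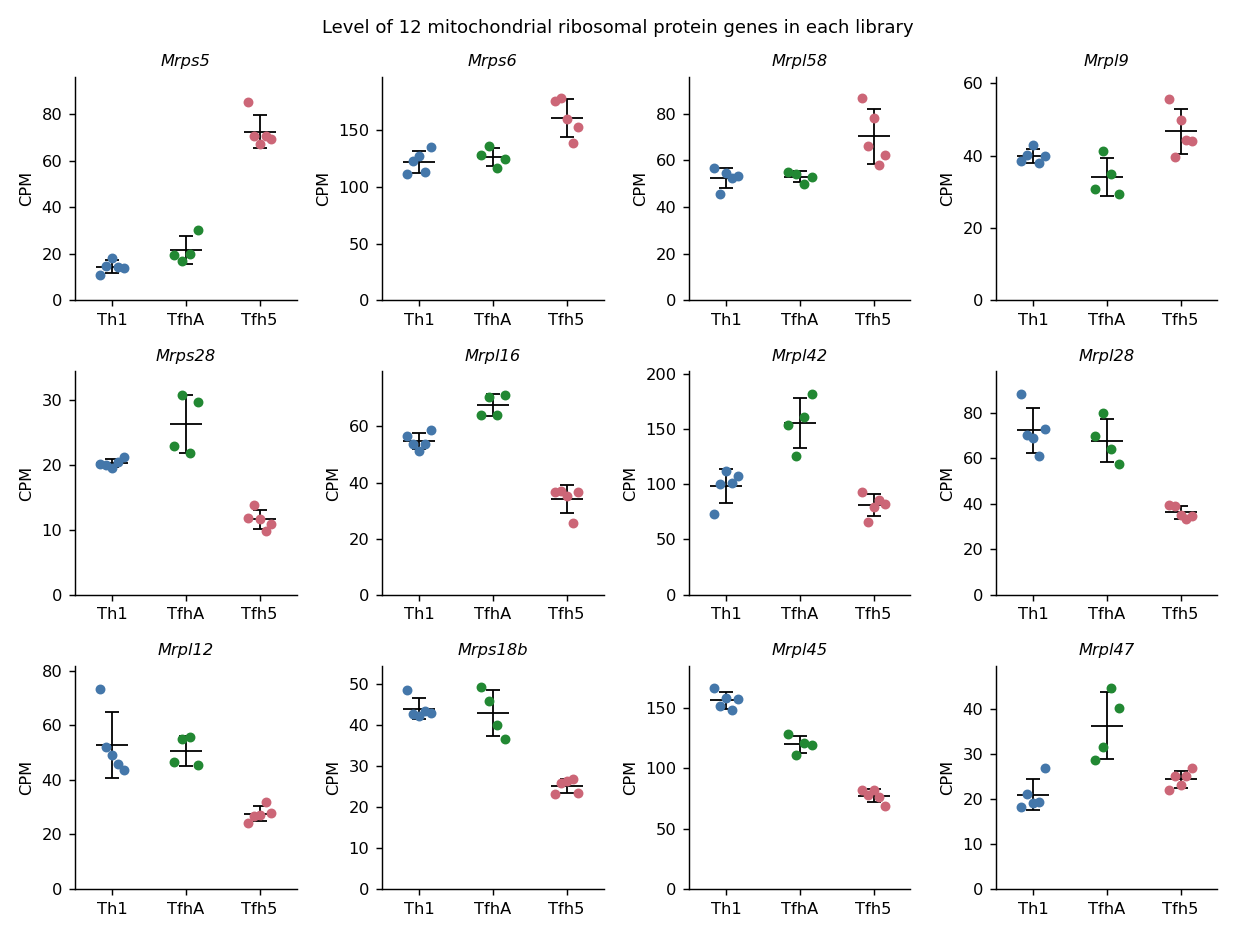
CPM of 12 members in each library (points) with mean and SD (black bars), on linear axes that start at 0. The Tfh5 points of Mrps5 (67.1 to 85.1 CPM) lie above all others, and those of Mrps28, Mrpl16, Mrpl28, Mrpl12, Mrps18b and Mrpl45 lie below all others.

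The stalk of the large subunit, where translation factors dock, is built on Mrpl10, Mrpl11 and Mrpl12. Mrpl12, which also binds the mitochondrial RNA polymerase, stood at 73.3, 51.9, 49.1, 45.7 and 43.6 CPM in the Th1 libraries, at 46.4, 54.9, 55.6 and 45.3 in the TfhA libraries and at 24.0, 26.7, 27.3, 31.7 and 27.9 in the Tfh5 libraries. The Tfh5 libraries were the lowest, with -0.88 ± 0.14 (SE, adjusted p = 4.94e-06) against TfhA, and Th1 1 stood above the other Th1 libraries. Its exons share 200 bases with Gm16755 on the opposite strand, and those of Mrpl10 share 240 with Gm11574. Mrpl11 ranged over 54.0 to 73.9 CPM in Th1, 59.3 to 80.5 in TfhA, and from 43.1 to 54.0 in Tfh5, and its log2 fold change was -0.56 ± 0.12 (SE, adjusted p = 0.000226). Mrpl10, the anchor of Mrpl12, ranged over 118 to 131 CPM in Th1, 89.0 to 122 in TfhA, and from 80.4 to 99.5 in Tfh5, with -0.26 ± 0.098 (SE, adjusted p = 0.0261). This call was lost without TfhA 1, TfhA 2 or Tfh5 4 (log2 fold changes from -0.20 to -0.21, adjusted p = 0.0848 to 0.107), and with the GC and length offsets Mrpl10 was -0.065 (adjusted p = 0.528). All 3 stalk genes were called lower, with log2 fold changes from -0.26 to -0.88.

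Of the other conserved core proteins in the fixed panel, Mrpl3 and Mrps7 were lower in Tfh5 than in TfhA and Mrpl4 and Mrps2 did not pass. Mrpl3, the homologue of bacterial L3 next to the peptidyl transferase centre, ranged over 72.6 to 86.0 CPM in Th1, 115 to 125 in TfhA, and from 67.0 to 94.2 in Tfh5, with -0.47 ± 0.098 (SE, adjusted p = 0.000202). Mrps7, a head protein of the small subunit, ranged over 89.4 to 99.1 CPM in Th1, 102 to 114 in TfhA, and from 70.5 to 80.6 in Tfh5, with -0.54 ± 0.084 (SE, adjusted p = 6.02e-06) and no overlap. Mrpl4 stood at 0.093, and the GC and length offsets brought it to 0.26 (adjusted p = 0.0348). Mrps2 stood at -0.15, and passed without Tfh5 5 (log2 fold change -0.23, adjusted p = 0.0499), the library with the highest Mrps2 level of its group. Mrps12, which with the rRNA monitors codon and anticodon pairing, ranged over 27.1 to 59.4 CPM in Th1, 17.4 to 34.1 in TfhA, and from 13.3 to 22.6 in Tfh5. Its log2 fold change was -0.56 ± 0.21 (SE, adjusted p = 0.0254). The call on Mrps12 was lost without TfhA 1, TfhA 2 or Tfh5 5 (log2 fold changes from -0.44 to -0.47, adjusted p = 0.0767 to 0.107) and with the GC and length offsets, at -0.27 (adjusted p = 0.198).

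The 3 paralogs of bacterial S18 differ in their place in the ribosome: Mrps18a sits in the large subunit, and Mrps18b and Mrps18c sit at different sites of the small subunit. Mrps18b stood at 48.6, 42.9, 42.3, 43.5 and 43.0 CPM in the Th1 libraries, at 49.2, 45.9, 40.2 and 36.6 in the TfhA libraries and at 23.2, 25.8, 26.3, 26.9 and 23.5 in the Tfh5 libraries. Its Tfh5 libraries lay below all others, and it fell by 41.6% against TfhA, with a log2 fold change of -0.78 ± 0.11 (SE, adjusted p = 1.26e-06). Its exons share 638 bases with Gm16279 on the opposite strand. Mrps18c ranged over 48.8 to 61.3 CPM in Th1, 59.0 to 76.5 in TfhA, and from 50.6 to 59.9 in Tfh5, with -0.32 ± 0.10 (SE, adjusted p = 0.00959), and Mrps18a ranged over 62.6 to 78.7 CPM in Th1, 61.8 to 82.7 in TfhA, and from 58.1 to 63.4 in Tfh5, with -0.26 ± 0.098 (SE, adjusted p = 0.0285). For both, Tfh5 overlapped with TfhA. The call on Mrps18c was lost without TfhA 5 (log2 fold change -0.26, adjusted p = 0.0538) and that on Mrps18a without TfhA 1, TfhA 2, Tfh5 3 or Tfh5 4 (log2 fold changes from -0.18 to -0.24, adjusted p = 0.0582 to 0.146). Mrps18b stayed lower with the GC and length offsets at -0.47 (adjusted p = 0.000187), and the other paralogs stood at 0.081 (adjusted p = 0.42) for Mrps18c and 0.006 (adjusted p = 0.956) for Mrps18a. Whether the paralogs differ in their response was not tested.

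Mrpl45, which faces the inner membrane and ties the ribosome to it, fell in steps over the 3 groups. It stood at 166, 151, 158, 148 and 157 CPM in the Th1 libraries, at 128, 111, 121 and 119 in the TfhA libraries and at 81.9, 77.8, 81.6, 76.3 and 68.3 in the Tfh5 libraries. No groups overlapped: Th1 was the highest, TfhA was in between and Tfh5 was the lowest. The log2 fold change was -0.63 ± 0.086 (SE, adjusted p = 7.47e-07) in Tfh5 against TfhA, -0.39 ± 0.085 (SE, adjusted p = 0.000695) in TfhA against Th1 and -1.02 ± 0.081 (SE, adjusted p = 5.67e-11) in Tfh5 against Th1. The same differences were -0.53, -0.39 and -0.92 with the GC and length offsets.

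Closest to 0 between Tfh5 and TfhA were Mrpl30, at -0.016 ± 0.085 (SE, adjusted p = 0.891), and Mrpl53, at -0.016 ± 0.13 (SE, adjusted p = 0.931). Mrpl30 ranged over 138 to 144 CPM in Th1, 151 to 189 in TfhA, and from 161 to 184 in Tfh5. In the GENCODE M21 gene models the whole Mrpl53 transcript, 695 bases, is shared with Gm42688 on the same strand. If the counting used both genes, which is not known, the counts depend on how shared reads were assigned. Both were higher in Tfh5 with the GC and length offsets, at 0.33 (adjusted p = 0.000251) and 0.35 (adjusted p = 0.012). Mrps36, the member outside the ribosome, ranged over 0.693 to 1.37 CPM in Th1, 0.65 to 1.02 in TfhA, and from 0.306 to 1.33 in Tfh5, the lowest level of all members, and its log2 fold change was -0.26 ± 0.47 (SE, adjusted p = 0.669).

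**Figure D4:**
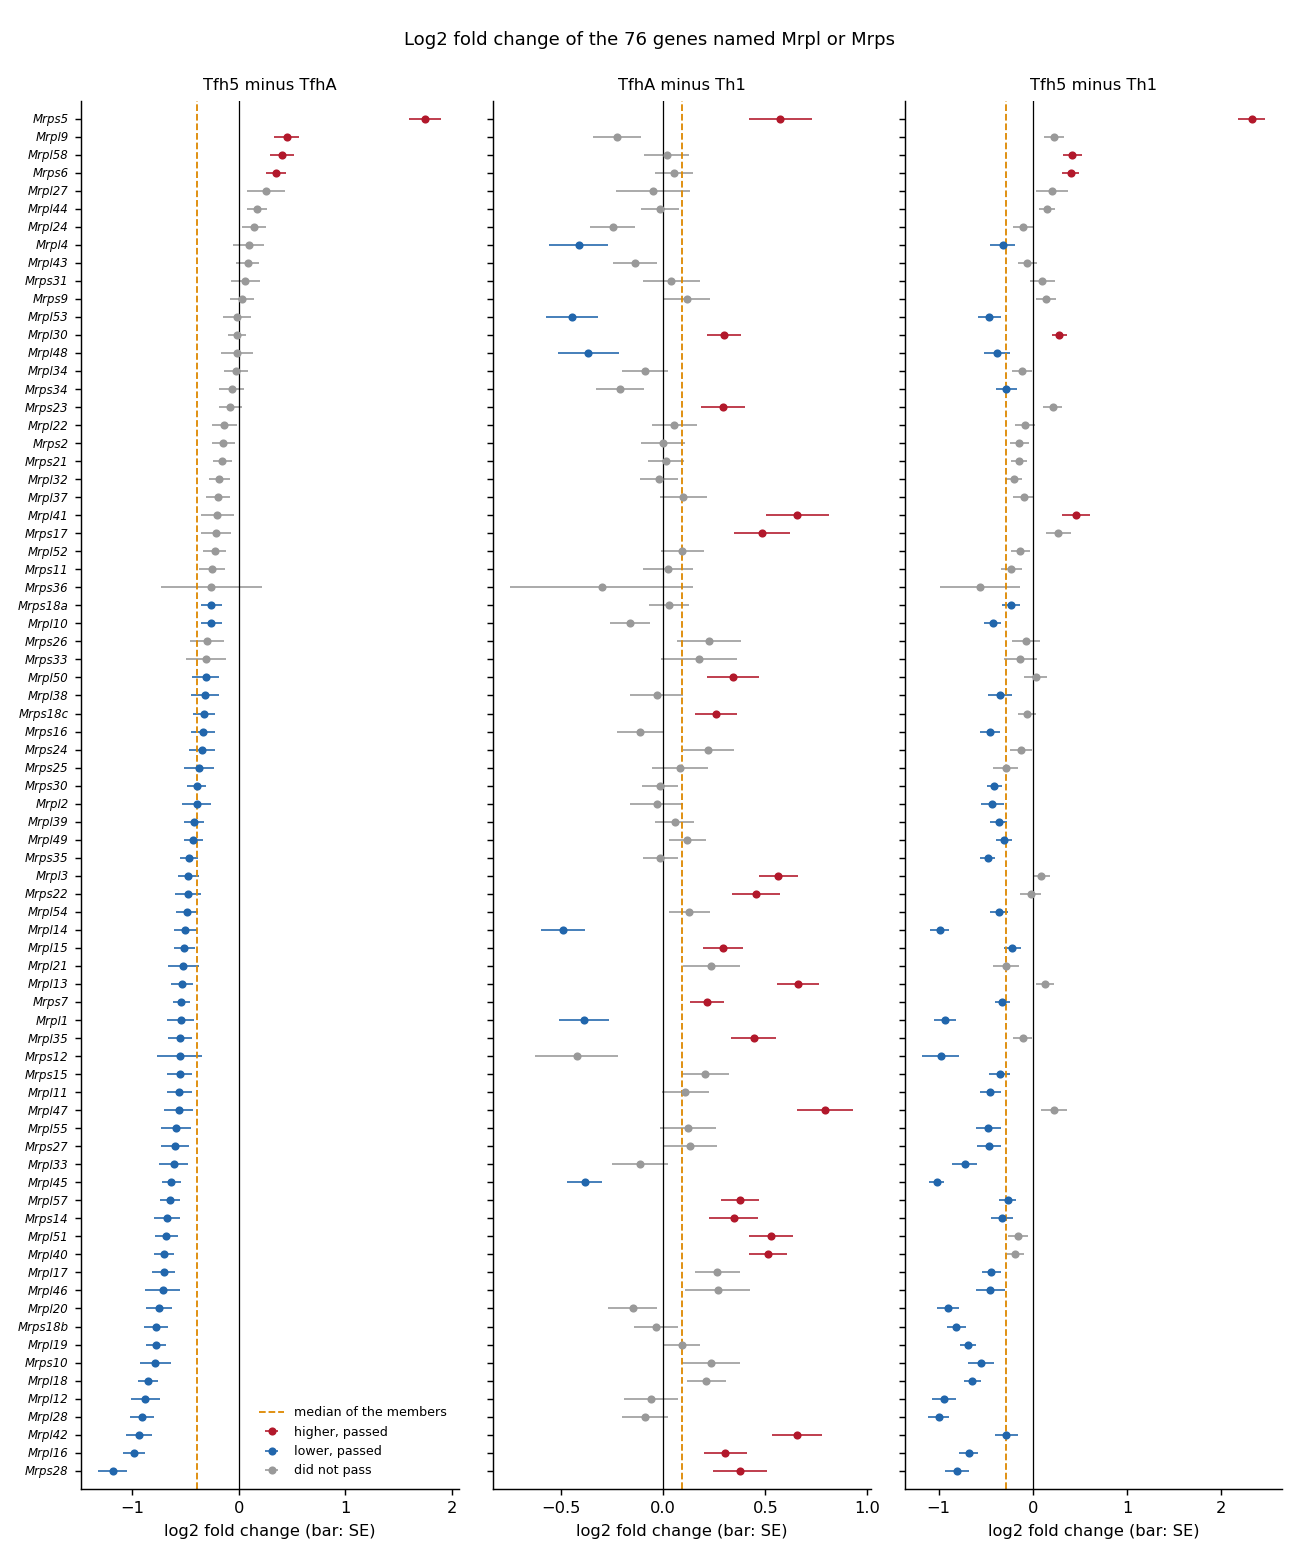
Log2 fold change (points) with SE (bars) of all 76 members in the 3 comparisons, sorted by Tfh5 minus TfhA. Red and blue mark genes that passed higher or lower, grey those that did not pass, and the dashed line is the members' median (-0.40, 0.092 and -0.28). Mrps5 stands alone at the top with 1.75 in the first panel and 2.32 in the third; each panel has its own scale.

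In the comparison of TfhA with Th1, which sets a follicular helper culture with neutralised TGF-β against a T helper 1 culture, 21 members were higher in TfhA and 6 were lower. The higher genes included Mrpl47, Mrpl13, Mrpl41 and Mrpl42, with log2 fold changes of 0.65 to 0.79, and the lower genes were Mrpl14, Mrpl53, Mrpl4, Mrpl1, Mrpl45 and Mrpl48, from -0.37 to -0.49, of which Mrpl1, Mrpl4 and Mrpl48 lost their call without single libraries as given below. By the same rule 23.2% of all tested genes were higher and 21.6% were lower, against 27.6% and 7.89% of the members. Without the offsets the share of higher members was thus near the background. Without overlap between the groups 17 members were higher (22.4%, background 19.3%) and 3 were lower (3.95%, background 18.7%). With the GC and length offsets 29 were higher (38.2%, background 27.3%) and 7 were lower (9.21%, background 21.2%). The higher share then stood above the background. The member median was 0.092, against 0.026 over all tested genes, and 0.18 against 0.064 with the offsets. The large subunit had 13 higher and 6 lower genes of 49. The small subunit had 8 higher and 0 lower genes of 26 by edgeR, also 0 lower by DESeq2 and 1 lower at an unadjusted p under 0.05. No member reached 2-fold in this comparison.

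Mrpl47, the counterpart of bacterial L29 near the exit of the peptide tunnel, stood at 18.2, 21.1, 19.1, 19.2 and 26.7 CPM in the Th1 libraries, at 28.6, 31.5, 44.5 and 40.1 in the TfhA libraries and at 21.9, 25.1, 23.1, 24.96 and 26.8 in the Tfh5 libraries. TfhA lay above Th1 and Tfh5 in every library, and the log2 fold change against Th1 was 0.79 ± 0.14 (SE, adjusted p = 5.5e-05). Its exons share 452 bases with Actl6a and 158 with Ndufb5 on the opposite strand. Mrpl13, a conserved large subunit protein, stood at 81.2, 85.2, 87.4, 76.7 and 96.6 CPM in the Th1 libraries, at 120.4, 138, 134 and 148 in the TfhA libraries and at 101, 108, 97.3, 81.0 and 80.0 in the Tfh5 libraries. TfhA was again the highest in every library, at 0.66 ± 0.10 (SE, adjusted p = 1.11e-05), and its exons share 330 bases with Mtbp on the opposite strand. Mrpl41, which is specific to mitochondria, stood at 22.2, 23.5, 18.9, 18.8 and 20.5 CPM in the Th1 libraries, at 31.1, 30.1, 35.5 and 34.5 in the TfhA libraries and at 34.1, 23.6, 30.5, 17.8 and 36.3 in the Tfh5 libraries. TfhA lay above Th1 and overlapped with Tfh5, whose libraries were spread from 17.8 to 36.3 CPM. The log2 fold change of Mrpl41 was 0.66 ± 0.16 (SE, adjusted p = 0.00133) in TfhA against Th1. For Mrpl42 it was 0.65 ± 0.12 (SE, adjusted p = 0.000112), and Mrpl3 rose with them at 0.56 ± 0.097 (SE, adjusted p = 4.33e-05). Mrps17, the counterpart of bacterial S17, ranged over 14.4 to 20.7 CPM in Th1, 22.0 to 28.5 in TfhA, and from 17.2 to 24.0 in Tfh5, with 0.48 ± 0.14 (SE, adjusted p = 0.00607).

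The higher calls of Mrpl16, Mrps28 and Mrps7 in TfhA against Th1 were less stable. Mrpl16 had 0.30 ± 0.10 (SE, adjusted p = 0.0217) and did not pass without Th1 3, TfhA 2 or TfhA 5 (log2 fold changes from 0.27 to 0.28, adjusted p = 0.0573 to 0.0669). Mrps28 had 0.38 ± 0.13 (SE, adjusted p = 0.0226) and did not pass without TfhA 2 or TfhA 5 (log2 fold changes from 0.29 to 0.31, adjusted p = 0.0919 to 0.108). Mrps7 had 0.21 ± 0.083 (SE, adjusted p = 0.0398) and did not pass without Th1 2, Th1 3, Th1 4, TfhA 1, TfhA 2 or TfhA 4 (log2 fold changes from 0.19 to 0.22, adjusted p = 0.0613 to 0.102).

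The 6 genes lower in TfhA than in Th1 belong to the large subunit. Mrpl14, which lies at the interface with the small subunit, stood at 94.9, 78.3, 75.9, 79.4 and 84.5 CPM in the Th1 libraries, at 60.0, 66.5, 56.3 and 52.4 in the TfhA libraries and at 41.6, 45.0, 47.4, 40.5 and 33.8 in the Tfh5 libraries. The 3 groups did not overlap: Th1 was the highest and Tfh5 the lowest, as for Mrpl45. Its log2 fold change was -0.49 ± 0.11 (SE, adjusted p = 0.000654) in TfhA against Th1, -0.50 ± 0.11 (SE, adjusted p = 0.000345) in Tfh5 against TfhA and -0.99 ± 0.10 (SE, adjusted p = 6.71e-09) in Tfh5 against Th1. Under the GC and length offsets these became -0.12 (adjusted p = 0.296), -0.21 (adjusted p = 0.0677) and -0.33 (adjusted p = 0.00241), so that the last of them alone passed. Mrpl1, the homologue of bacterial L1 on a mobile stalk of its own, stood at 54.7, 67.7, 67.8, 64.7 and 64.2 CPM in the Th1 libraries, at 43.5, 37.5, 57.6 and 57.0 in the TfhA libraries and at 38.0, 29.2, 31.9, 35.6 and 32.3 in the Tfh5 libraries. Th1 and TfhA overlapped, with -0.39 ± 0.12 (SE, adjusted p = 0.0126), and this call was lost without TfhA 1 or TfhA 2 (log2 fold changes from -0.28 to -0.33, adjusted p = 0.0533 to 0.0667). Tfh5 lay below Th1 in every library, at -0.93 ± 0.12 (SE, adjusted p = 1.67e-07).

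Mrpl53 had -0.45 ± 0.13 (SE, adjusted p = 0.00677) in TfhA against Th1, with no overlap. Mrpl4, which lines the peptide tunnel, ranged over 39.8 to 57.7 CPM in Th1, 26.9 to 41.0 in TfhA, and from 32.5 to 45.8 in Tfh5, with -0.41 ± 0.14 (SE, adjusted p = 0.0211). The call on Mrpl4 was lost without Th1 1, TfhA 4 or TfhA 5 (log2 fold changes from -0.32 to -0.35, adjusted p = 0.071 to 0.0899) and with the GC and length offsets, at -0.045 (adjusted p = 0.744). Mrpl48, specific to mitochondria, ranged over 20.2 to 23.0 CPM in Th1, 13.8 to 20.4 in TfhA, and from 13.2 to 21.5 in Tfh5, with -0.37 ± 0.15 (SE, adjusted p = 0.0477). The call on Mrpl48 was lost without Th1 2, Th1 3, Th1 4, Th1 5, TfhA 1, TfhA 2, TfhA 5 or Tfh5 3 (log2 fold changes from -0.28 to -0.39, adjusted p = 0.0527 to 0.171). Mrps21, at a log2 fold change of 0.013, and Mrps2 were the members closest to 0 between TfhA and Th1.

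In the comparison of Tfh5 with Th1, 39 members were lower in Tfh5 and 5 were higher, and the member median was -0.28 against -0.015 over all tested genes. Lowest were Mrpl45, Mrpl28, Mrpl14 and Mrps12, with log2 fold changes of -1.02 to -0.98, and the higher genes were Mrps5, Mrpl41, Mrpl58, Mrps6 and Mrpl30. By the same rule 33.0% of tested genes were lower and 31.5% were higher, against 51.3% and 6.58% of the members. Without overlap between the groups 30 members were lower (39.5%, background 26.5%) and 4 were higher (5.26%, background 23.7%). With the GC and length offsets this comparison changed: 25 members were lower (32.9%, background 29.8%) and 23 were higher (30.3%, background 38.0%). The member median was then 0.019 against 0.083 over all tested genes. The lower share of the members thus stood above the background without the offsets and near it with them.

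Mrps12 stood at 59.4, 36.2, 32.4, 27.1 and 31.3 CPM in the Th1 libraries, at 34.1, 32.3, 27.0 and 17.4 in the TfhA libraries and at 18.4, 21.8, 18.9, 22.6 and 13.3 in the Tfh5 libraries. The Tfh5 libraries lay below all Th1 libraries, among which Th1 1 was far above the rest, and the log2 fold change was -0.98 ± 0.20 (SE, adjusted p = 0.000109), or -0.44 (adjusted p = 0.0219) with the GC and length offsets. For Mrpl28 and Mrpl12 the values were -0.998 and -0.94, and -0.47 and -0.51 with the offsets. Mrpl41 was higher in Tfh5 than in Th1 by 0.46 ± 0.15 (SE, adjusted p = 0.00945), although the groups overlapped. Mrpl30 was higher by 0.28 ± 0.08 (SE, adjusted p = 0.00328), with no overlap. Mrpl50, a large subunit protein specific to mitochondria, and Mrps22, a small subunit protein specific to mitochondria, were closest to 0 here, at 0.03 and -0.024. Mrpl4 and Mrpl42 were called lower at -0.32 ± 0.13 (SE, adjusted p = 0.0392) and -0.28 ± 0.12 (SE, adjusted p = 0.0394). The call on Mrpl4 was lost without Th1 1, Th1 2, Tfh5 2, Tfh5 3, Tfh5 4 or Tfh5 5 (log2 fold changes from -0.22 to -0.30, adjusted p = 0.0749 to 0.154), and that on Mrpl42 without Th1 2, Th1 3, Th1 4, Th1 5, Tfh5 2, Tfh5 3 or Tfh5 5 (log2 fold changes from -0.21 to -0.28, adjusted p = 0.0565 to 0.128). Under the offsets neither was lower, at 0.21 (adjusted p = 0.0527) and 0.097 (adjusted p = 0.393).

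The 3 comparisons share libraries, so their calls are not independent of each other.

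Compared per length of transcript, as RPKM (CPM divided by exon length in kilobases) averaged over the 3 groups, members spanned a wide range. The highest were Mrpl33 (325 RPKM), Mrpl52 (320.4), Mrps21 (230.3) and Mrpl30 (166), all short transcripts of 478 to 973 bases. The lowest were Mrps36 (1.20), Mrps25 (3.08), Mrps17 (3.59) and Mrpl48 (3.88), the last 3 with long annotated exons of 4696 to 6073 bases, so that their RPKM depends on which part of the annotation is transcribed here. Mrps25 shares 3533 exon bases with Nr2c2 and Mrpl48 shares 403 with Rab6a on the opposite strand. Smaller stretches are shared by Mrps7 (127 with Gga3 and 119 with Mif4gd, opposite strand), Mrps18c (174 with Gm43511, same strand) and Mrpl33 (107 with Gm43809, same strand). The group medians over members were 34.8 RPKM in Th1, 32.7 in TfhA and 24.4 in Tfh5. Among the most abundant members, Mrpl33, the counterpart of bacterial L33, ranged over 143 to 212 CPM in Th1, 122 to 202 in TfhA, and from 90.2 to 137 in Tfh5, with -0.61 ± 0.14 (SE, adjusted p = 0.0005) in Tfh5 against TfhA. The difference in Mrpl33 was -0.15 (adjusted p = 0.292) with the GC and length offsets. Mrpl52, specific to mitochondria, ranged over 142 to 170.2 CPM in Th1, 143 to 202 in TfhA, and from 125 to 172 in Tfh5, and Mrps21, the counterpart of bacterial S21, over 110 to 126 CPM in Th1, 100.3 to 126 in TfhA, and from 102 to 109 in Tfh5. Neither passed in Tfh5 against TfhA, at -0.23 ± 0.11 (SE, adjusted p = 0.0737) and -0.16 ± 0.088 (SE, adjusted p = 0.134). Mrpl52 passed without TfhA 4 or Tfh5 1 (log2 fold changes from -0.29 to -0.30, adjusted p = 0.0177 to 0.0237), and Mrps21 passed without TfhA 4 (log2 fold change -0.23, adjusted p = 0.0293). With the GC and length offsets the sign turned for both. Mrpl52 was then at 0.12 (adjusted p = 0.244), and Mrps21 was called higher at 0.27 (adjusted p = 0.00242).

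By origin, the 44 members with a bacterial counterpart had 29 lower and 3 higher calls in Tfh5 against TfhA, with a median of -0.51. The 31 members specific to mitochondria had 18 lower and 1 higher, with a median of -0.32. Of all tested genes 30.1% were lower and 27.4% were higher in this comparison. With the GC and length offsets the medians were -0.24 and -0.17. The medians in TfhA against Th1 were 0.099 and 0.094. Whether the origin classes differ was not tested.

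The rest of the mitochondrial translation machinery was read from lists of genes chosen by function. All 5 mitochondrial ribosomal proteins under other names that were listed were lower in Tfh5 than in TfhA, with a median of -0.51, and 0 were higher by edgeR, by DESeq2 or at an unadjusted p under 0.05. With the GC and length offsets 4 were lower, with a median of -0.36, and Aurkaip1 did not pass, at -0.088 (adjusted p = 0.38). Dap3, a GTP-binding protein of the small subunit, stood at -0.51 ± 0.092 (SE, adjusted p = 4.04e-05), Ptcd3 at -0.61 ± 0.10 (SE, adjusted p = 1.81e-05) and Aurkaip1 at -0.26 ± 0.091 (SE, adjusted p = 0.0157), and these 3 are named only to complete the set. Chchd1, a small subunit protein, ranged over 66.0 to 91.6 CPM in Th1, 91.7 to 109 in TfhA, and from 46.6 to 70.2 in Tfh5, with -0.70 ± 0.11 (SE, adjusted p = 1.13e-05), or -0.30 (adjusted p = 0.00746) with the offsets. Gadd45gip1, a large subunit protein first named for binding GADD45, stood at 89.4, 77.0, 73.0, 72.5 and 78.2 CPM in the Th1 libraries, at 51.7, 61.9, 60.4 and 48.5 in the TfhA libraries and at 37.8, 37.6, 42.3, 45.3 and 43.9 in the Tfh5 libraries. Its groups did not overlap and stepped down from Th1 over TfhA to Tfh5, at -0.49 ± 0.10 (SE, adjusted p = 0.000429) and -0.43 ± 0.10 (SE, adjusted p = 0.00112).

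Of 28 assembly and rRNA modification factors, 8 were lower and 4 were higher in Tfh5 than in TfhA, with a median of -0.15. Under the offsets 6 were lower and 6 were higher, and the median turned to 0.049. Among the higher genes, Ddx28, a DEAD-box helicase of large subunit assembly, stood at 17.7, 18.03, 18.1, 15.5 and 13.6 CPM in the Th1 libraries, at 25.3, 29.2, 28.9 and 23.6 in the TfhA libraries and at 62.4, 56.8, 47.9, 58.4 and 53.7 in the Tfh5 libraries. The 3 groups did not overlap, and the log2 fold change was 1.06 ± 0.12 (SE, adjusted p = 3.99e-08) in Tfh5 against TfhA and 0.69 ± 0.12 (SE, adjusted p = 5.2e-05) in TfhA against Th1. Mterf3, which takes part in large subunit biogenesis and in the control of mitochondrial transcription, ranged over 27.4 to 38.0 CPM in Th1, 38.6 to 53.8 in TfhA, and from 56.6 to 87.1 in Tfh5, with 0.56 ± 0.13 (SE, adjusted p = 0.000858) in Tfh5 against TfhA, or 0.88 (adjusted p = 5.96e-08) with the offsets. Of 13 tested translation factors 3 were lower and 2 were higher, with a median of -0.056, which turned to 0.047 with 2 lower and 2 higher under the offsets. Mrrf, the ribosome recycling factor, was higher at 0.62 ± 0.11 (SE, adjusted p = 2.75e-05), and Tsfm, the elongation factor that reloads Tufm, was lower at -0.52 ± 0.20 (SE, adjusted p = 0.0291), a call lost with the offsets, at -0.39 (adjusted p = 0.0837).

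Of 20 mitochondrial aminoacyl-tRNA synthetases and subunits of the glutaminyl-tRNA amidotransferase, 10 were lower and 1 was higher in Tfh5 than in TfhA, with a median of -0.32, and the offsets gave the same counts and a median of -0.27. Ears2, which charges the tRNA for glutamate, ranged over 5.33 to 6.98 CPM in Th1, 5.08 to 8.17 in TfhA, and from 2.10 to 4.18 in Tfh5. Tfh5 lay below both other groups, at -1.25 ± 0.23 (SE, adjusted p = 5.06e-05) against TfhA. Of 27 tested genes of mitochondrial transcription and mRNA handling, 12 were lower and 1 was higher, with a median of -0.32, and 9 were lower and 2 were higher with the offsets, with a median of -0.16. Pprc1, a coactivator of nuclear genes for mitochondria, stood at 124, 94.3, 105.4, 98.3 and 89.4 CPM in the Th1 libraries, at 116, 110.1, 92.6 and 83.5 in the TfhA libraries and at 47.2, 63.0, 54.2, 60.5 and 61.5 in the Tfh5 libraries. Its Tfh5 libraries lay below all others, at -0.81 ± 0.12 (SE, adjusted p = 1.71e-06) against TfhA and -0.92 (adjusted p = 8.08e-10) with the offsets. Fastkd1, an RNA-binding protein of mitochondria, was higher in TfhA than in Th1 at 1.15 ± 0.16 (SE, adjusted p = 2.91e-06). Nrf1 and Gabpa were picked after their values were seen, because their motif cores were searched above. Their log2 fold changes in Tfh5 against TfhA were -0.57 ± 0.10 (SE, adjusted p = 5.54e-05) and 0.003 ± 0.11 (SE, adjusted p = 0.98), in this order. Yy1, whose motif was searched too, is not given here. Whether any of these factors has a part in the levels of the members was not tested.

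The transcripts that mitochondrial ribosomes translate were higher in Tfh5 where they passed. Of 13 mitochondrially encoded mRNAs 8 could be tested, and 5 were higher and 0 were lower in Tfh5 than in TfhA, by edgeR, by DESeq2 and at an unadjusted p under 0.05, with a median of 0.53. mt-Nd4, a subunit of complex I, stood at 4305 ± 785 CPM (SD, n = 5) in Th1, 3876 ± 1079 (n = 4) in TfhA and 6063 ± 836 (n = 5) in Tfh5, with 0.65 ± 0.16 (SE, adjusted p = 0.00132) against TfhA. mt-Nd3 was at 0.70 ± 0.20 (SE, adjusted p = 0.00317) in Tfh5 against Th1. The rRNA of the small subunit, mt-Rnr1, was higher in Tfh5 at 0.57 ± 0.16 (SE, adjusted p = 0.00281) against TfhA, and that of the large subunit, mt-Rnr2, did not pass at 0.33 ± 0.15 (SE, adjusted p = 0.0666). The libraries were made with an mRNA kit, so rRNA levels depend on how much of it was carried through. The 5 untested mRNAs (mt-Atp6, mt-Atp8, mt-Nd4l, mt-Co3, mt-Co2) stood at 0.523 CPM or less, although mt-Co1 and mt-Nd4 are among the abundant transcripts, and no source used here gives how reads with several matches were counted. Leaving out all mitochondrially encoded genes before scaling gave 44 members lower and 4 higher in Tfh5 against TfhA, and gave 34 lower and 8 higher against Th1.

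Most genes for proteins of the cytosolic ribosome were not called between Tfh5 and TfhA. With the GC and length offsets, most of those called were higher. Of 83 tested genes 10 were lower, 11 were higher and 62 did not pass in Tfh5 against TfhA, with a median of -0.012. Over all tested genes 30.1% were lower and 27.4% were higher. Their median exon length was 975 bases, below that of the members. Under the offsets 3 were lower and 37 were higher, with a median of 0.28, where 28.7% of all tested genes were lower and 32.3% higher. In TfhA against Th1, 19 were lower, 6 were higher and 58 did not pass, where 21.6% of all tested genes were lower and 23.2% higher. Rps10 ranged over 33.3 to 82.8 CPM in Th1, 19.5 to 28.9 in TfhA, and from 19.0 to 26.2 in Tfh5, with -1.04 ± 0.20 (SE, adjusted p = 0.000135), and Rps7 over 14.2 to 32.9 CPM in Th1, 6.79 to 15.6 in TfhA, and from 7.59 to 15.2 in Tfh5, with -0.98 ± 0.25 (SE, adjusted p = 0.00266). Cytosolic ribosomal protein genes have many near-identical processed copies, so their counts are uncertain. Their difference from the mitochondrial members was not tested.

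**Figure D5:**
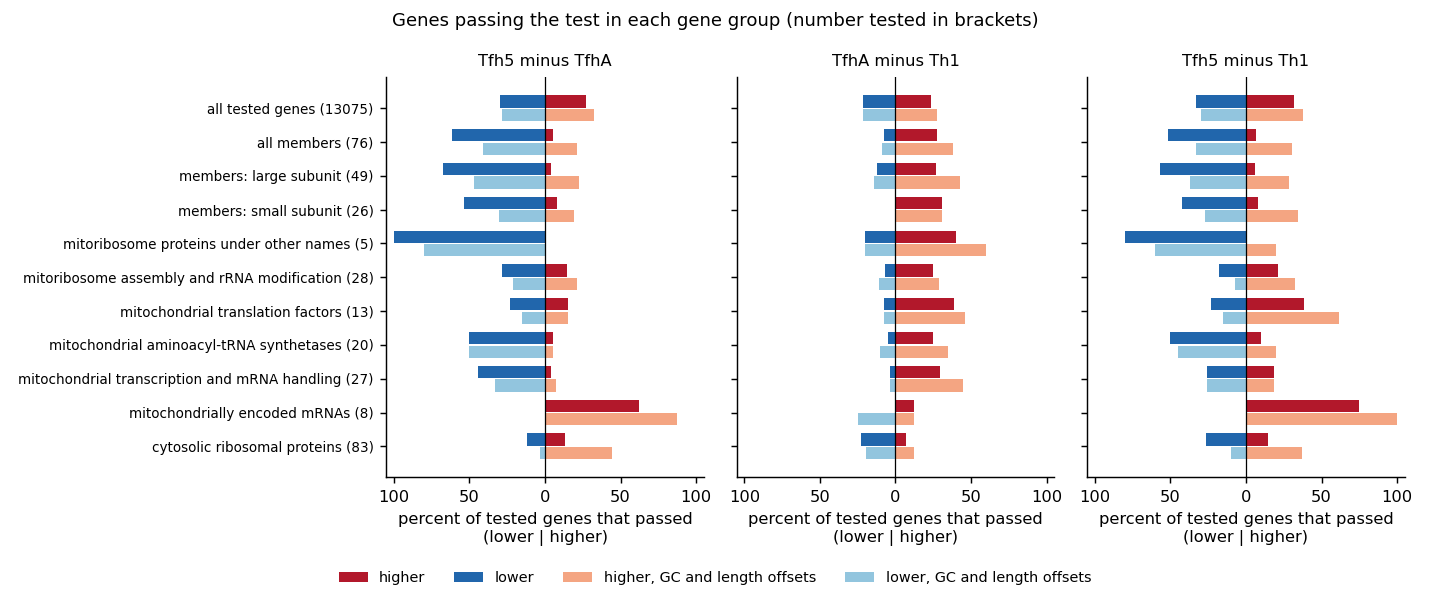
Percent of tested genes in each group that passed lower (left, blue) or higher (right, red) in the 3 comparisons, with the GC and length offsets in pale colours. In Tfh5 minus TfhA the blue bar of the members (61.8%) is longer than that of all tested genes (30.1%), the mitochondrially encoded mRNAs have bars to the right alone, and the cytosolic ribosomal proteins turn to the right with the offsets.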

How the data were processed

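Bulk mRNA libraries of 14 samples in 3 groups were analysed, grouped by the samples' titles. The authors deposited raw counts per Entrez gene, made with STAR 2.7.2b and featureCounts 1.6.4 on mm10, per the submitters' processing notes. No source used here gives the annotation, the strand setting or the treatment of reads with several matches. Symbols and gene coordinates came from a RefSeq GRCm38.p6 table (25275 of 27179 genes matched), and promoters from RefSeq GRCm38.p6. Exon length, GC content, neighbouring genes and shared exon bases came from GENCODE M21.

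The deposited counts were tested with edgeR 4.0.16 (quasi-likelihood, R 4.3.3) over all 14 libraries with 1 mean per group, the filterByExpr filter (13075 genes), TMM scaling and two-sided p-values with Benjamini-Hochberg adjustment, called under 0.05. CPM values are TMM-scaled, and log2 fold changes carry the model's SE. Offsets for GC content and length were smooth fits per library (mgcv 1.9.3). Alternatives were DESeq2 1.42.0, other scalings and filters, only the groups compared, a replicate block, the offsets and leaving out each library. Offsets for GC alone and for length alone were chosen after seeing the data. The fit was tested on simulated data.

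The members and gene lists were chosen with earlier results of these data known. Members named were, per comparison, the 4 highest and 4 lowest that passed and the 2 closest to 0, the 4 highest and 4 lowest by RPKM, and a panel by role, plus up to 2 genes of each list that reached 5 CPM in a group; an item that this rule names is not reported here. Libraries within groups differed beyond counting noise (chi-square per degree of freedom 4.15 to 30.6 over 26 pairs), so each was counted as 1 sample. That does not show that they come from separate animals or cultures. In Th1 the pairs with Th1 1 stood at 22.9 to 30.6 and the other pairs at 4.15 to 9.81. Pairs ran from 11.7 to 20.5 in TfhA and from 5.90 to 26.1 in Tfh5.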

Additional observations from a re-analysis of the deposited data

Results flagged for a closer look

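In 10 of 117 groups of libraries examined for an outlying library, 1 library stood apart from the rest of its group by Dixon's test at the 95% level. Chance alone would do so in about 1 of 20 groups. The groups that stood apart were all of named members. Th1 1 stood apart 4 times: Mrps12 was at 59.43 CPM there and at 27.05 to 36.2 in the other Th1 libraries, Mrpl12 at 73.33 against 43.63 to 51.87, Mrps18b at 48.64 against 42.34 to 43.49, and Mrpl1 was low at 54.69 against 64.19 to 67.82. Tfh5 1 stood apart 3 times, each time on the high side: Mrps5 was at 85.12 CPM against 67.09 to 70.67 in the other Tfh5 libraries, Mrpl4 at 45.8 against 32.53 to 34.93, and Mrps25 at 19.71 against 14.38 to 15.76. Mrpl16 was low in Tfh5 4, at 25.53 CPM against 35.01 to 37.12. Mrps2 was high in Tfh5 5, at 94.6 CPM against 67.79 to 75.45, and Mrpl50 was high in TfhA 5, at 76.63 CPM against 56.74 to 57.6. Whether these libraries differ in handling was not tested.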

How the results depend on the processing

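Other scalings, filters, tools and sample choices, the replicate block and offsets for GC content alone gave 4 to 5 higher and 44 to 48 lower members in Tfh5 against TfhA, 15 to 27 and 4 to 7 in TfhA against Th1, and 5 to 9 and 30 to 43 in Tfh5 against Th1. Leaving out 1 library at a time gave 4 and 39 to 49, 16 to 23 and 4 to 6, and 5 to 7 and 33 to 44. In Tfh5 against TfhA the higher count was 16 with GC and length offsets, 15 with a replicate block added and 14 with length alone, and the lower count was 31 with the offsets and 31 with the block added. In Tfh5 against Th1 the higher count was 8 without mitochondrially encoded genes, 23 with the offsets, 23 with the block added, 9 with GC alone and 20 with length alone, and the lower count was 25 with the offsets and 19 with length alone. The cause was not tested.

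Log2 fold changes that changed sign and were called before or after it did so only in fits with offsets. In the order GC and length, the same with the replicate block, and length alone, they were in Tfh5 against TfhA 0.325, 0.324 and 0.298 for Mrpl30, 0.349, 0.348 and 0.353 for Mrpl53 and 0.274, 0.269 and 0.257 for Mrps21. Mrps18a was at 0.006 with both and 0.049 with length alone, and Mrps18c at 0.081 with both and 0.105 with the block. In Tfh5 against Th1 they were 0.212, 0.211 and 0.03 for Mrpl4, 0.097, 0.097 and 0.209 for Mrpl42, 0.51, 0.514 and 0.412 for Mrpl52, 0.038, 0.033 and 0.025 for Mrpl53, 0.242, 0.245 and 0.182 for Mrps18a, 0.226, 0.224 and 0.367 for Mrps18c, 0.393, 0.394 and 0.407 for Mrps21 and 0.219, 0.221 and 0.343 for Mrps22. With GC alone Mrpl4 was at 0.061 and Mrps18a at 0.012 in Tfh5 against Th1. Mrpl28 in TfhA against Th1 was at 0.22 with both, 0.222 with the block and 0.218 with GC alone.

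The replicate block alone gave 4 higher and 46 lower, 19 and 7, and 5 and 39 members. Same-numbered libraries correlated at -0.048 to 0.155 in their deviations from the group means (13 pairs, 1 above 0.1). Differently numbered libraries of 2 groups correlated at -0.368 to 0.327 (52 pairs, 3 above 0.1), with both extremes in pairs of Th1 1, with TfhA 5 and TfhA 2. In all, 5 of 14 libraries correlated best with their own number, so the numbers were not taken as pairs. Structure shared across groups in another way was not tested. Among the values of the named members, leaving out a library ended 76 calls, added 15 and reversed 0. The common biological coefficient of variation was 14.25%, and 4 or 5 libraries a group limit which of the small changes could be called.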
